A study of Homo sapiens with 15 samples.

Results

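Histone deacetylases (HDACs) remove acetyl groups from lysines of histones and of many other proteins. Class I holds the zinc-dependent enzymes HDAC1, HDAC2, HDAC3 and HDAC8, which are mostly nuclear. HDAC1 and HDAC2 are close paralogs that act within the Sin3, NuRD, CoREST and MiDAC co-repressor complexes, HDAC3 is the catalytic subunit of the NCoR complex, and HDAC8 works outside these complexes and deacetylates the cohesin subunit SMC3. Most HDAC inhibitors block the enzymes by binding the zinc of the catalytic pocket, so they act on the protein and not on its mRNA. The values below show the mRNA side: how much message of each class I enzyme the cells held after exposure to such an inhibitor.

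The members were the 4 genes that make up class I, found by symbol among the 60649 genes of the raw count table, and all of them passed the filter on low counts that left 23711 genes for testing. The cells were K-562, an established line of chronic myeloid leukaemia in blast crisis that carries the BCR-ABL fusion. Untreated cells were set against cells given martinostat, a hydroxamate-type inhibitor of several HDACs, for 24 h at 1 µM, 0.5 µM, 0.25 µM or 0.15 µM, with 3 biological replicates in each of the 5 groups and 15 poly(A) RNA libraries in all. Everything here therefore describes 1 cell line at a single time, and untreated cells, with no mention of a vehicle in the labels, are the only control.

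Library totals ran from 23755510 to 32805574 counts. The replicates were numbered as biological replicates, and no pair of libraries of a group agreed within sampling noise. The third replicates at 0.25 and 0.5 µM stood apart from the other libraries on the third principal component (70.1 and 75.4, against 16.0 or lower), so results that rest on them are given with and without them. Of the erythroid progenitor list that K-562 cells express (GATA1, TFRC, NFE2 and LMO2), none was at 0 in any group, and the summed level of these 4 genes went from 1537 to 1676 CPM (counts relative to library size, here by library totals) in untreated libraries to 477 to 586 CPM at 1 µM. The 5 lymphoid markers summed to 2.23 to 4.36 CPM in untreated and 7.19 to 11.8 CPM in treated libraries, with 1 of the 5 at 0 in untreated cells. The part of this marker shift in the values below was not tested.

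The 4 messages parted with dose. HDAC2 mRNA fell in steps with the dose to 0.309 of its untreated level at 1 µM (95% interval 0.254 to 0.375), while HDAC8 mRNA, the least abundant of the class, was not called different at any dose with the main scaling of the libraries. With that scaling, HDAC3 mRNA was lower at 0.15 and 0.25 µM and back near its untreated level at 0.5 and 1 µM. By library totals HDAC3 was not called at the lower doses and was called higher at the higher ones. HDAC1 mRNA was highest at 0.5 and 1 µM, where its libraries lay above all untreated ones, as for 39.9 and 42.8% of all genes. With the main scaling HDAC1 was called higher at 0.5 µM alone. That call was lost when the third replicate at 0.5 µM was left out. In bulk RNA a lower value can come from fewer cells that hold the message or from less message per cell, and these cannot be told apart here.

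The genes lie on 4 chromosomes (hg38 throughout, GENCODE annotation). HDAC1 (ENSG00000116478.12) spans chr1:32292083-32333635 on the plus strand, and no other gene shares its exons. HDAC2 (ENSG00000196591.12) spans chr6:113933028-114011308 on the minus strand, with 0.450% of its exon bases under the antisense gene HDAC2-AS2. HDAC3 (ENSG00000171720.10) spans chr5:141620876-141636849 on the minus strand, with 9.24% of its exon bases under a gene of the opposite strand. HDAC8 (ENSG00000147099.21) spans chrX:72329516-72573101 on the minus strand, with 5.21% of its exon bases under another gene of the same strand. Since the strand setting of the counting is not given in the sources used here, fragments of the shared stretches of HDAC2 and HDAC3 are uncertain in their source. HDAC2-AS2 itself had 0 to 23 counts in a library, against 2465 to 8816 for HDAC2. The processed HDAC1 copies HDAC1P1 and HDAC1P2 had 0 and 0 to 4 counts, against 4442 to 16098 for HDAC1.

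The promoters of HDAC1, HDAC2 and HDAC3, the members whose messages moved, are shown as the 250 bases before the RefSeq gene start (GRCh38.p14), 5′ to 3′ on the strand of the gene. Capitals mark GC boxes (GGGCGG, or CCGCCC on the other strand) and the CCAAT box (CCAAT, or ATTGG on the other strand). The windows are chr1:32291833-32292082 on the plus strand, chr6:113971149-113971398 on the minus strand and chr5:141636850-141637099 on the minus strand. The RefSeq start of HDAC2 lies inside the GENCODE span given above, which reaches further upstream.
HDAC1: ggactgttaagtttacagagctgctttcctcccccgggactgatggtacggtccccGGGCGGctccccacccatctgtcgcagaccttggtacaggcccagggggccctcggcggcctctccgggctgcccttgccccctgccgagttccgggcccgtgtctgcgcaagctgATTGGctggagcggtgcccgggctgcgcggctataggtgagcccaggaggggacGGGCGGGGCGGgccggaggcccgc
HDAC2: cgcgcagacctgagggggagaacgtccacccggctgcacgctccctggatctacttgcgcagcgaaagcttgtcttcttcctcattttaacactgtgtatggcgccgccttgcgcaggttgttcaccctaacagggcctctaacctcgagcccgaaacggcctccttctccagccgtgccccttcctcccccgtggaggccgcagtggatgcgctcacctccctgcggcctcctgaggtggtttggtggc
HDAC3: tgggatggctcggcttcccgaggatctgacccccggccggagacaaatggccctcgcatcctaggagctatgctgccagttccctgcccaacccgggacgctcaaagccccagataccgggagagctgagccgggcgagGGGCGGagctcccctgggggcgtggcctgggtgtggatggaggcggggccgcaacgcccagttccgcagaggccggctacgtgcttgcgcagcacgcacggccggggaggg

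The HDAC1 window held 3 GC boxes, which began 194, 24 and 19 bases before the start, the last pair overlapping by a base, and a CCAAT box in the ATTGG orientation 78 bases before it. The HDAC3 window held 1 GC box, 111 bases before the start, and no CCAAT box. The HDAC2 window held neither motif, nor did that of HDAC8. None of the 4 windows held TATAAA or TTTATA. In all 35116 RefSeq windows of this length, 42.6% held a GC box, 32.0% a CCAAT box and 10.7% the TATA letters. The windows of HDAC1, HDAC2 and HDAC3 were above the median of 58% in G and C, at 71.6%, 63.2% and 70.8%. In G and C, HDAC2 stood at percentile 62.3 of all windows, against 82.8 for HDAC1 and 81.1 for HDAC3. The 3 windows held 21, 18 and 22 CpG, against a median of 11. The HDAC8 window (chrX:72572844-72573093, minus strand) was at 48.0% with 7 CpG. A match is a description of the letters only.

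The messages of the class were then ordered by abundance. Protein levels of the members are not part of these data, so the order of the enzymes may differ. Levels can be compared between genes only per length, so CPM, computed on library sizes corrected for composition with the TMM method of edgeR, were divided by the length of all exons of a gene in kilobases. In untreated cells HDAC1 was highest at 63.2 ± 3.36 CPM per kb (mean ± SD, n = 3, as for all group values here). HDAC3 followed at 25.7 ± 1.26, HDAC2 at 21.7 ± 0.869 and HDAC8 at 0.593 ± 0.0701 CPM per kb. By this length the same order held in all 5 groups, and the libraries of neighbours did not overlap.

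The distance between HDAC3 and HDAC2 widened with the dose. HDAC3 lay 1.18-fold above HDAC2 per kb in untreated cells and 3.78-fold above it at 1 µM (25.3 ± 1.13 against 6.70 ± 0.257 CPM per kb). HDAC1 reached 80.9 ± 1.36 CPM per kb at 1 µM, and HDAC8 stayed last at 0.554 ± 0.0367. The length matters most for HDAC8, whose exons sum to 22888 bases over all transcripts but to 1754 in the canonical one. By canonical length, an alternative chosen after seeing the data, the order was the same with HDAC8 at 7.73 ± 0.914 and HDAC2 at 34.2 ± 1.37 CPM per kb in untreated cells. At 0.5 µM the libraries of HDAC2 and HDAC8 then overlapped (10.7 ± 1.47 against 7.94 ± 1.19).

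**Figure D1:**
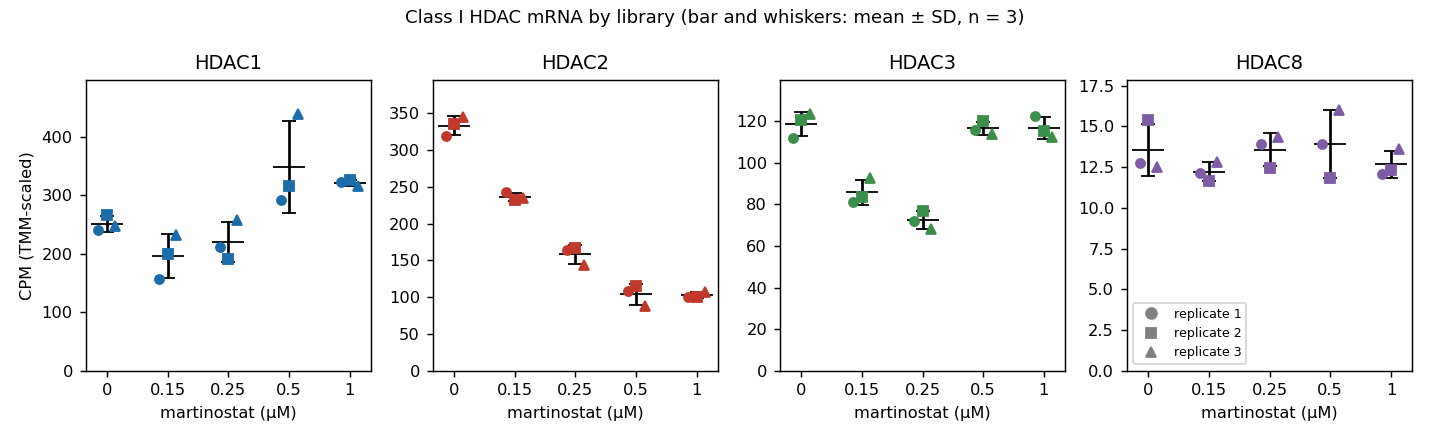
TMM-scaled CPM of HDAC1, HDAC2, HDAC3 and HDAC8 (vertical axes, each from 0) in untreated cells and at 4 doses of martinostat in µM (horizontal axes); points are libraries, the horizontal bar is the mean and the whiskers are the SD of 3 libraries. HDAC2 steps down from 333 to 103 CPM, HDAC3 dips to 72.4 CPM at 0.25 µM and is at 117 CPM at 0.5 and 1 µM, HDAC1 is highest at 0.5 µM with the widest spread, and HDAC8 stays between 11.7 and 16.0 CPM.

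HDAC2, with HDAC1 the catalytic core of Sin3 and NuRD, fell at each step of dose up to 0.5 µM. Its 3 untreated libraries had 319, 336 and 345 CPM. At 0.15 µM the values were 243, 232 and 234 CPM, and at 0.25 µM 164, 167 and 144 CPM. They went down further to 109, 115 and 87.5 CPM at 0.5 µM. At 1 µM they were 100.5, 101 and 107 CPM. No treated library reached an untreated one, and the groups did not overlap from one dose to the next up to 0.5 µM, whereas the libraries at 0.5 and 1 µM did.

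Untreated cells were the reference for the next test. HDAC2 was called lower at all doses in the quasi-likelihood test of edgeR, adjusted after Benjamini and Hochberg over all 23711 genes. The log2 fold change was -0.50 at 0.15 µM (SE 0.13, adjusted p = 0.00386) and -1.07 at 0.25 µM (SE 0.13, adjusted p = 1.12e-06). At 0.5 and 1 µM edgeR gave -1.68 (SE 0.13, adjusted p = 2.29e-09) and -1.70 (SE 0.13, adjusted p = 2.08e-09). Such calls were common: edgeR called 19.4, 24.8, 27.6 and 27.5% of all genes lower with rising dose, and the treated libraries lay below all untreated ones in 26, 28.4, 30 and 32.1% of genes, so the call alone does not set HDAC2 apart. In size, the HDAC2 change at 1 µM stood at percentile 9.09 of all tested genes, counted from the lowest.

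The steps between doses used different pairs of groups. HDAC2 went down from 0.15 to 0.25 µM by edgeR's test (log2 fold change -0.58, SE 0.13, adjusted p = 0.00738), a step in which 7.32% of all genes were called lower and 16.4% had libraries that went down without overlap. It went down again from 0.25 to 0.5 µM (-0.61, SE 0.13, edgeR adjusted p = 0.00146), where 16% of genes were called lower and 20% went down without overlap. From 0.15 to 1 µM the change was -1.20 (SE 0.13, edgeR adjusted p = 6.40e-07), with 23.1% of genes called lower. From 0.5 to 1 µM the change was -0.01 with a 95% interval of -0.29 to 0.26, so a further change within that interval was not detectable here. That last comparison called 0 of the 23711 genes in edgeR, with 372 at an unadjusted p under 0.05, 0 in DESeq2 and 1 in limma.

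The HDAC2 calls at 0.25, 0.5 and 1 µM and between 0.15, 0.25 and 0.5 µM were kept in all 26 other settings, which covered 3 other scalings, other filters and tools and the omission of each library. Without the third replicates at 0.25 and 0.5 µM, the change at 0.5 µM was -1.54. The 0.15 µM call was lost by library totals, where the log2 fold change was -0.13, and with TMM factors from the genes of at least 10 CPM (-0.23).

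HDAC1, the partner of HDAC2 in the same complexes, went the other way at the higher doses. In size, its change stood at percentile 52.7 of all tested genes at 0.5 µM and 50.8 at 1 µM, near the middle. Its untreated libraries had 239.7, 266 and 247 CPM. At 0.15 µM the values were 156, 199 and 232 CPM, and at 0.25 µM 211, 191 and 257 CPM. The former lay below all untreated libraries, as did 26% of all genes at that dose, and the latter overlapped them. At 0.5 µM the libraries had 292, 315 and 438 CPM, and at 1 µM 322, 326 and 315 CPM. Each of these 6 libraries was above each untreated one, as was the case for 39.9 and 42.8% of all genes at these doses, and the 438 CPM of the third replicate at 0.5 µM set the wide spread of that group (348 ± 78.2 CPM).

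By edgeR's test HDAC1 was called higher than in untreated cells at 0.5 µM alone (log2 fold change 0.47, SE 0.17, adjusted p = 0.0222), where 39.4% of all genes were called higher. This call did not hold when the third replicate at 0.5 µM was left out (0.27, adjusted p = 0.146 in edgeR), nor without untreated replicate 1 (0.44) or 3 (0.46). It did hold without the third replicates at both 0.25 and 0.5 µM (0.31, adjusted p = 0.0477 in edgeR). At 1 µM the change was 0.36 (SE 0.17, adjusted p = 0.0798 in edgeR), and 12 of the 26 other settings gave a call, such as library totals (0.71) or fits without replicate 3 at 0.15 µM (0.40), at 0.25 µM (0.40) or at 0.5 µM (0.36). The changes at 0.15 and 0.25 µM were -0.36 (SE 0.17, adjusted p = 0.0943 in edgeR) and -0.19 (SE 0.17, adjusted p = 0.349). The former was called without replicate 3 at 0.15 µM (-0.50) or at 0.5 µM (-0.36). By library totals it was close to 0 (-0.0027, adjusted p = 0.996 in edgeR). By the same scaling the value at 0.25 µM was 0.35, so the direction at 0.25 µM turned with the scaling.

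Comparisons between doses leave the untreated libraries out. HDAC1 rose from 0.25 to 0.5 µM by edgeR's test (0.67, SE 0.17, adjusted p = 0.00661), while 14.4% of all genes were called higher in that step. Library totals gave 0.54, no longer called. From 0.15 to 1 µM it rose by 0.71 (SE 0.17, adjusted p = 0.00259 in edgeR), with 21.5% of genes called higher. This last call held in all 26 settings. HDAC1 did not pass the test from 0.15 to 0.25 µM (0.17, 95% interval -0.20 to 0.53) or from 0.5 to 1 µM (-0.12, -0.48 to 0.24).

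HDAC3, which needs binding to its co-repressor complex for its activity, dipped at the lower doses with TMM scaling. Untreated libraries had 112, 120.4 and 123 CPM. At 0.15 µM the values were 81.1, 83.8 and 92.6 CPM, and at 0.25 µM 72.2, 76.8 and 68.2 CPM. All 6 lay under the untreated libraries, as did 26 and 28.4% of all genes at these doses. The 0.25 µM libraries lay under those at 0.15 µM, as for 16.4% of genes. That step was not called for HDAC3 (log2 fold change -0.25, edgeR adjusted p = 0.191). At 0.5 µM the libraries had 116, 120.1 and 114 CPM, and at 1 µM 123, 115 and 113 CPM. They overlapped the untreated range at both doses.

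HDAC3 passed as lower at 0.15 µM (-0.47, SE 0.12, edgeR adjusted p = 0.00264) and at 0.25 µM (-0.71, SE 0.12, edgeR adjusted p = 3.61e-05). Of all genes, 19.4 and 24.8% were called lower at these doses. HDAC3 was not called at 0.5 µM (-0.02, 95% interval -0.27 to 0.22) or 1 µM (-0.02, -0.27 to 0.22). From 0.25 to 0.5 µM HDAC3 rose by 0.69 (SE 0.12, adjusted p = 0.000179 in edgeR), and it was higher at 1 than at 0.15 µM (0.44, SE 0.12, adjusted p = 0.00440 in edgeR). In these comparisons 14.4 and 21.5% of all genes were called higher. Both HDAC3 calls between doses held in all 26 other settings, so the return from the lower to the higher doses held under each scaling. The position against untreated cells did not. By library totals HDAC3 was not called at 0.15 µM (-0.11) or 0.25 µM (-0.19) and was called higher at 0.5 µM (0.36) and 1 µM (0.33).

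HDAC8, the class I member that deacetylates SMC3, gave no call at any dose with TMM scaling. Its untreated libraries had 12.8, 15.4 and 12.5 CPM. At 0.15 µM they had 12.2, 11.7 and 12.8 CPM, at 0.25 µM 13.9, 12.5 and 14.4 CPM. At 0.5 µM the values were 13.9, 11.8 and 16.0 CPM, and at 1 µM 12.1, 12.3 and 13.6 CPM. Every treated group overlapped the untreated one. The counts behind these values were 283 to 589 in a library.

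The log2 fold changes of HDAC8 against untreated cells were -0.15, 0.00, 0.04 and -0.10 with rising dose. At 1 µM the 95% interval ran from -0.43 to 0.24, so a change within it was not detectable at this depth and spread. In a test for any difference among the 5 groups, HDAC8 gave an adjusted p of 0.765 in edgeR, whereas 73.6% of all genes were called. The same edgeR test gave adjusted p = 0.00104 for HDAC1, 1.57e-09 for HDAC2 and 3.78e-05 for HDAC3. A missed threshold does not show that HDAC8 stayed the same. With library totals or TMM factors from the genes of at least 10 CPM, it was called higher at 0.25 µM (0.54 and 0.43).

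Counting the class as a whole, edgeR called HDAC2 and HDAC3 lower and 0 of the 4 higher at 0.15 µM and again at 0.25 µM. The shares over all genes there were 51.2 and 62.3% in either direction. At 0.5 µM 1 member was called higher and 1 lower, and at 1 µM 1 lower, against 66.9 and 66.2% of all genes called in either direction. The median log2 fold change of the 4 was -0.41, -0.45, 0.01 and -0.06 with rising dose, and that of all tested genes 0.28, 0.32, 0.34 and 0.32. In the 10128 genes of at least 10 CPM, which hold the 4 members, the median was -0.28, -0.40, -0.37 and -0.39.

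**Figure D2:**
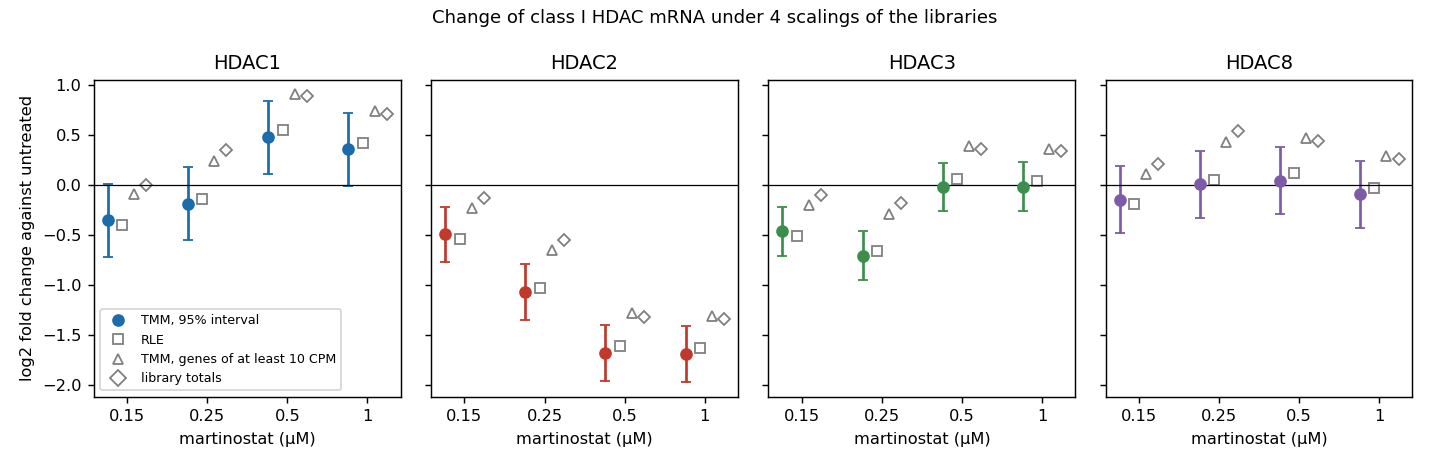
Log2 fold change against untreated cells (vertical axis, common to the panels) of the 4 class I genes at each dose of martinostat in µM (horizontal axis). Filled circles with bars are the TMM-scaled fit with its 95% interval, and open symbols are the same fit with 3 other scalings; HDAC2 is below 0 at every dose under all of them, while the other members lie on both sides of 0 depending on dose and scaling.

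The scaling matters for these comparisons since the TMM factors differed between the groups. They were 0.784 to 0.828 in untreated and 0.950 to 1.28 in treated libraries. By library totals the median log2 fold change of all genes moved to 0.64, 0.85, 0.72 and 0.67, and the share of called genes that were higher went from 62.2, 60.1, 58.8 and 58.5% to 81.9, 79.2, 70.2 and 69.3%. Between 0.15 and 0.25 µM that share was 40.4% with TMM and 64.7% with TMM factors from the genes of at least 10 CPM, and between 0.25 and 0.5 µM it was 47.3% and, by library totals, 34.8%.

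A ratio of a pair of members within a library is free of any scaling, so the members were next compared with each other. The ratios below are of counts, not per length, so their change between groups can be read and their level cannot. Counts of HDAC1 over HDAC2 were 0.752, 0.791 and 0.716 in the untreated libraries. At 0.15 µM they were 0.643, 0.859 and 0.989, and at 0.25 µM 1.29, 1.14 and 1.79. They reached 2.68, 2.75 and 5.00 at 0.5 µM and 3.20, 3.24 and 2.93 at 1 µM. HDAC2 counts exceeded those of HDAC1 in all 6 libraries of untreated and 0.15 µM cells and in none of the other 9.

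For each of the 6 pairs, the log2 ratio was compared between the 6 libraries at 0.5 and 1 µM and the 6 at 0.15 and 0.25 µM, and between the 12 treated and the 3 untreated libraries, with exact two-sided permutation tests and Benjamini-Hochberg adjustment over these 12 tests. HDAC1 over HDAC2 was 1.60 higher (log2) at the higher doses (exact p = 0.00216, the smallest this test can give, adjusted 0.00649). HDAC2 over HDAC3 was lower there by 1.48 on the log2 scale and HDAC2 over HDAC8 lower by 0.95, with the same p and no overlap of libraries. HDAC1 over HDAC8 was higher by 0.65, again without overlap and with that p. HDAC3 over HDAC8 was higher by 0.53 (exact p = 0.00649, adjusted 0.0130) with overlapping libraries.

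HDAC1 over HDAC3 was the pair that did not pass between higher and lower doses. It was 2.12 ± 0.103 in untreated cells and 2.27 ± 0.304, 3.06 ± 0.654, 3.00 ± 0.736 and 2.75 ± 0.109 with rising dose. Its log2 difference between higher and lower doses was 0.13 (exact permutation p = 0.413, adjusted 0.451). The third replicates at 0.25 and 0.5 µM gave its highest values, 3.77 and 3.85.

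Against untreated cells, HDAC2 over HDAC8 was lower in all 12 treated libraries, with a mean log2 difference of -1.19 (exact permutation p = 0.00440, the smallest this test can give, adjusted 0.0105). HDAC1 over HDAC2 was 1.30 higher (exact p = 0.0264, adjusted 0.0396), HDAC1 over HDAC3 0.36 higher (exact p = 0.0220, adjusted 0.0377) and HDAC2 over HDAC3 0.93 lower on the log2 scale (exact p = 0.0308, adjusted 0.0410), all with overlapping libraries. None of these 3 passed when any 1 of the untreated libraries was left out, which also raises the smallest p the test can give. Nor did they pass without the third replicates at 0.25 and 0.5 µM (1.16, 0.27 and -0.89, exact permutation p = 0.0420, 0.0350 and 0.0490, adjusted 0.0629, 0.0599 and 0.0653). HDAC1 over HDAC8 and HDAC3 over HDAC8 did not pass against untreated cells (log2 differences 0.11 and -0.26, exact permutation p = 0.659 and 0.251).

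**Figure D3:**
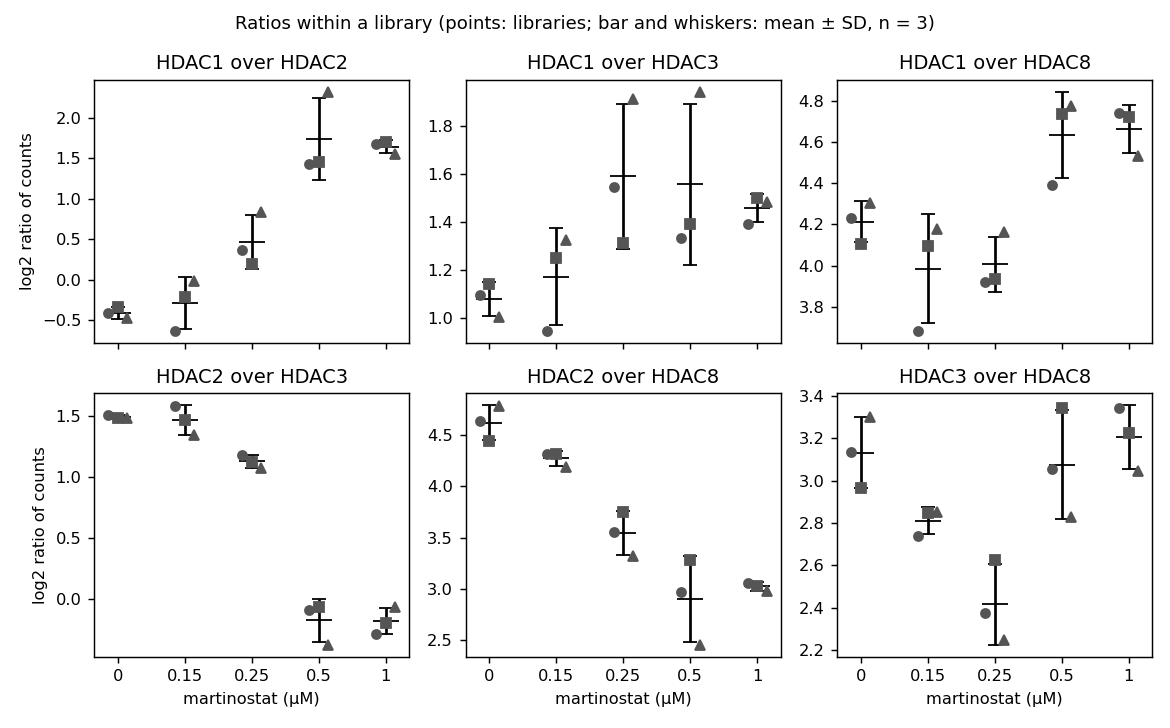
Log2 ratio of the counts of each pair of class I genes within a library (vertical axes) in untreated cells and at 4 doses of martinostat in µM (horizontal axes); symbols are the 3 libraries of a group, with the mean and SD as bar and whiskers. The 3 ratios that contain HDAC2 shift most between the lower and the higher doses. HDAC1 over HDAC8 and HDAC3 over HDAC8 shift there too, by 0.65 and 0.53. In linear terms HDAC1 over HDAC2 goes from a mean of 0.753 in untreated cells to 3.12 at 1 µM.

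Per length, HDAC2 took a smaller share of the class I pool at the higher doses and HDAC1 a larger one. HDAC2 made up 19.5 ± 0.566% of the summed CPM per kb of the 4 in untreated cells. With rising dose its share was 18.6 ± 2.75, 12.7 ± 2.00, 5.76 ± 1.499 and 5.91 ± 0.323%. HDAC1 made up 56.8 ± 1.16% in untreated cells and 71.3 ± 0.610% at 1 µM, and HDAC3 23.1 ± 0.664 and 22.3 ± 0.729%. The share of HDAC8 was 0.532 ± 0.0474% in untreated cells, highest at 0.25 µM (0.724 ± 0.0300%) and 0.488 ± 0.0404% at 1 µM. By canonical length the HDAC2 share went from 15.4 to 4.60% and the HDAC1 share from 53.4 to 65.9% at 1 µM, while HDAC8 made up 3.48% in untreated cells. The deposited FPKM, which divide by the genomic span, put HDAC3 first in untreated cells with 41.8%, before HDAC1 with 34.0% and HDAC2 with 24.0%, so the order of HDAC1 and HDAC3 depends on the length used.

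The shares were tested in the contrasts used for the ratios, with exact two-sided permutation tests adjusted over 8 tests. The HDAC2 share was lower at 0.5 and 1 µM (mean 5.84%) than at 0.15 and 0.25 µM (15.7%), without overlap of libraries (exact p = 0.00216, adjusted 0.00866), and this call held without any 1 library. The HDAC8 share was lower at the higher doses too (0.498 against 0.683%, same p). The HDAC1 share was higher at the higher doses (71.8 against 62.9%, exact p = 0.0130, adjusted 0.0346) with overlapping libraries, a call that held in 6 of 15 single omissions. Against untreated cells HDAC1 was higher by 10.5 points and HDAC2 lower (10.7 against 19.5%), both with exact p = 0.0264 and adjusted 0.0422, and each call held in 2 of 15 single omissions. HDAC3 passed in neither contrast (exact permutation p = 0.474 and 0.167), nor did HDAC8 against untreated cells (exact permutation p = 0.431). The shares of a library sum to a fixed whole, so they are not independent of each other or of the ratios.

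The sum over the 4 genes depends on whether length is counted. Per length it was 111 ± 4.84 CPM per kb in untreated cells, 83.9 ± 10.5 and 82.0 ± 6.92 at 0.15 and 0.25 µM, and 121 ± 18.5 and 113 ± 1.81 at 0.5 and 1 µM. In plain CPM it was 716 ± 28.9 in untreated cells. With rising dose it was 530.2 ± 39.9, 464 ± 18.4, 583 ± 64.7 and 553 ± 4.32 CPM, with a mean below untreated cells at every dose. Both sums use TMM scaling and were not computed by library totals. The TMM factors were 0.784 to 0.828 in untreated and 0.950 to 1.28 in treated libraries. The position of the sum against untreated cells may therefore depend on the scaling. The sums are descriptions with no test.

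**Figure D4:**
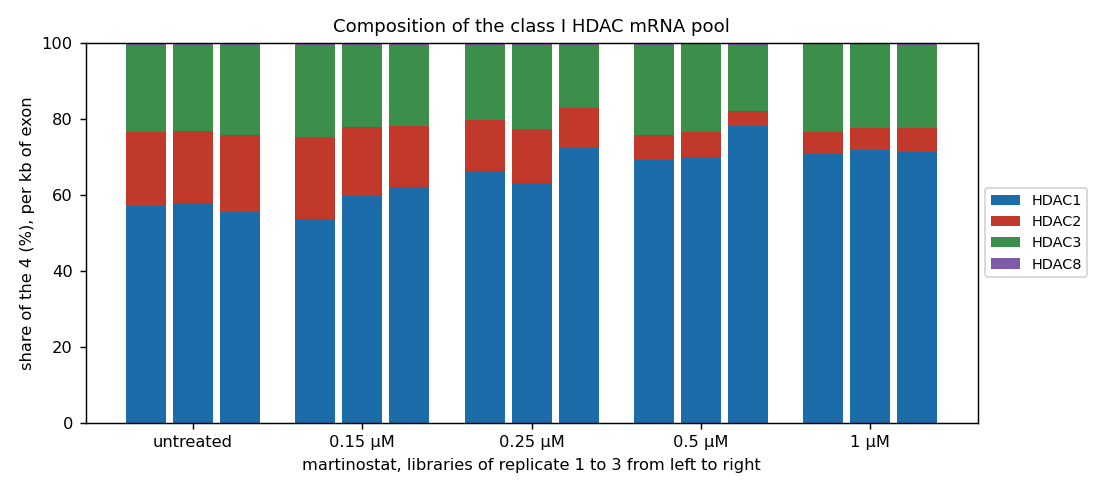
Share of HDAC1, HDAC2, HDAC3 and HDAC8 (stacked bars, percent of the summed CPM per kb of exon of the 4) in each of the 15 libraries, 3 per group from replicate 1 to 3. The HDAC2 band narrows from 18.9 to 20.1% in untreated libraries to 5.71 to 6.28% at 1 µM, and the HDAC8 band is below 1% everywhere.

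The genes whose pattern was most like each member were looked up by Pearson's r of log2 CPM over the 15 libraries, among 10122 tested genes with a symbol and at least 10 CPM. The points share the 5 groups and the libraries, so r is a description. HDAC2 was closest to the heat shock protein gene HSPH1 (r = 0.996), to DPH2 of diphthamide synthesis (0.996) and to ATXN10 (0.995). These fell further than HDAC2: HSPH1 went from 399 ± 32.2 to 22.3 ± 1.499 CPM at 1 µM, DPH2 from 171 ± 6.08 to 9.48 ± 0.227 and ATXN10 from 125 ± 8.87 to 30.6 ± 1.16.

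HDAC3 was closest to the exon junction complex helicase gene EIF4A3 (r = 0.979), GFOD2 (0.975) and the ubiquitin ligase gene RNF114 (0.973). EIF4A3 showed the same dip and return, with 182 ± 11.8 CPM in untreated cells, 70.5 ± 6.55 at 0.25 µM and 191 ± 23.2 at 1 µM. HDAC1 was closest to the complement regulator gene CD59 (r = 0.957), IK (0.948) and GON4L (0.939). For HDAC8 the highest r was 0.740, with the chromatin remodeller gene CHD2, followed by CARD8 (0.734) and RIT1 (0.709). Among the members themselves, r was -0.65 between HDAC1 and HDAC2 and 0.67 between HDAC1 and HDAC3.

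The partners of the class I enzymes were then counted from lists drawn up by complex membership. Of 33 subunits of the HDAC1/2 complexes, edgeR put 3 higher and 14 lower at 0.15 µM. The numbers were 3 and 18 at 0.25 µM, 11 and 11 at 0.5 µM, then 10 and 11 at 1 µM. Over all genes, 31.9, 37.4, 39.4 and 38.8% were called higher with rising dose and 19.4, 24.8, 27.6 and 27.5% lower. The median of the 33 log2 fold change was -0.27, -0.44, 0.01 and -0.02. The lowest at 1 µM was CHD3, a remodelling ATPase of NuRD, at -2.73 (SE 0.18, adjusted p = 1.51e-10 in edgeR), which went from 194 ± 12.9 to 29.2 ± 2.77 CPM. The highest was RCOR2, a CoREST scaffold, at 1.29 (SE 0.23, adjusted p = 6.14e-05 in edgeR), from 7.76 ± 1.60 to 19.0 ± 1.32 CPM.

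The balance of the list turned with the scaling at the lower doses. By library totals 7 subunits were higher and 6 lower at 0.15 µM and 13 against 8 at 0.25 µM. They were 15 against 9 at 0.5 µM as well as at 1 µM. By that scaling 11700, 14764, 15810 and 15585 of the 23711 genes were called with rising dose. Of these, 81.9, 79.2, 70.2 and 69.3% were higher. MTA1, MTA2 and MTA3, the NuRD subunits that bind HDAC1 and HDAC2 directly and that were chosen here after their values were seen, went from 134 ± 5.14, 425 ± 19.5 and 54.6 ± 6.06 CPM to 30.9 ± 2.49, 97.3 ± 0.418 and 15.9 ± 1.47 CPM at 1 µM. All 3 were called lower there with TMM scaling (log2 fold changes -2.11, -2.13 and -1.78), as were 27.5% of all genes. Of the whole list of 33 subunits, 11 were called lower and 10 higher at that dose.

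Of 4 subunits of the NCoR complex of HDAC3, edgeR called 2, 3, 3 and 3 lower with rising dose and 0 higher, where 19.4, 24.8, 27.6 and 27.5% of all genes were called lower and 31.9 to 39.4% higher. At 1 µM the WD40 subunits TBL1X and TBL1XR1 were lower by edgeR's test (-1.58, SE 0.17, adjusted p = 1.06e-07, and -1.13, SE 0.17, adjusted p = 9.40e-06). The co-repressor NCOR1 was lower too (-0.73, SE 0.14, adjusted p = 0.000130 in edgeR). GPS2 was at 0.35 (95% interval -0.21 to 0.91), not called. With library totals the numbers of lower subunits were 0, 1, 3 and 3, and 1 was higher at 0.5 and 1 µM. Of all genes called by that scaling, 81.9, 79.2, 70.2 and 69.3% were higher with rising dose. TBL1X values were 116, 105 and 132 CPM in untreated cells and 40.5, 32.7 and 45.1 CPM at 1 µM. They did not overlap, and 32.1% of all genes likewise lay below all untreated libraries at that dose. HDAC3 itself was in its untreated range there with TMM scaling and was called higher by library totals.

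On the side of HDAC8, the list of cohesin subunits and of the acetyltransferases that modify SMC3 held 7 genes. Of these, edgeR called 6 lower at 0.15 µM and 7 lower at each higher dose, against 19.4, 24.8, 27.6 and 27.5% of all genes with rising dose. The lowest at 1 µM was the cohesin subunit gene STAG2 (-2.39, SE 0.18, adjusted p = 1.13e-09 in edgeR), with 434, 504 and 509 CPM in untreated cells and 83.5, 78.5 and 114 CPM at 1 µM. The highest was SMC3, the substrate of HDAC8 (-0.67, SE 0.13, adjusted p = 0.000254 in edgeR), from 141 ± 7.84 to 88.9 ± 13.6 CPM. By library totals 4 of the 7 were lower at each dose and 0 were higher. Of all genes called by that scaling, 81.9, 79.2, 70.2 and 69.3% were higher with rising dose. HDAC8 itself was not called at any dose with TMM.

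Of the 7 zinc-dependent HDACs outside class I, edgeR put 2 higher and 1 lower at 0.15 µM, 2 higher and 2 lower at 0.25 µM, then 3 higher and 2 lower at 0.5 as well as 1 µM. With rising dose, 31.9, 37.4, 39.4 and 38.8% of all genes were called higher and 19.4, 24.8, 27.6 and 27.5% lower. The lowest at 1 µM was HDAC7, a class IIa member, at -3.10 (SE 0.18, adjusted p = 2.76e-11 in edgeR). Its libraries had 139, 135 and 147 CPM in untreated cells and 13.2, 16.0 and 19.7 CPM at 1 µM. The highest was HDAC11, the single class IV member, at 2.04 (SE 0.23, adjusted p = 2.31e-07 in edgeR), with 6.99, 6.18 and 5.99 CPM in untreated cells and 27.4, 26.5 and 24.8 CPM at 1 µM. At 0.5 and 1 µM these counts were the same with library totals, by which 70.2 and 69.3% of all called genes were higher. By that scaling 3 were called higher and 0 lower at 0.15 µM, where 81.9% of all called genes were higher.

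**Figure D5:**
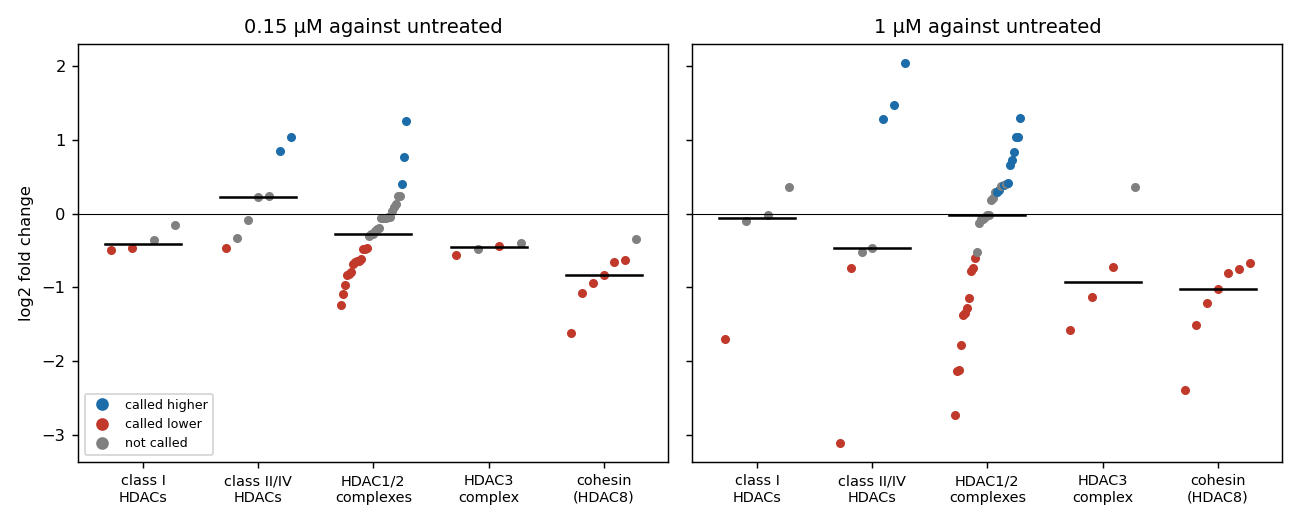
Log2 fold change against untreated cells (vertical axis) at 0.15 µM (left) and 1 µM (right) of the class I HDACs, the other zinc-dependent HDACs, the subunits of the HDAC1/2 and HDAC3 complexes and the cohesin genes; each point is a gene, coloured by edgeR's call, and the bar is the median of the list. At 1 µM the subunits of the HDAC1/2 complexes spread from -2.73 to 1.29. All 7 genes of the cohesin list, which includes the acetyltransferases that modify SMC3, are below 0 there.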

How the data were processed

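Libraries were made with a directional poly(A) kit and sequenced as paired ends. According to the study's methods and the submitters' processing notes, the authors trimmed reads with Trim Galore 0.6.10 and Trimmomatic, aligned them to hg38 with HISAT2 2.2.1 and SAMtools 1.21, and counted fragments per GENCODE gene with featureCounts 1.5.3. The deposited table holds raw counts of 60649 genes, 99.8% of which matched a symbol. The deposited FPKM, 1 file per library, are normalised by the authors to the library total and the genomic span of the gene, and served only as an alternative.

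Counts were filtered with filterByExpr, scaled with TMM and fitted with edgeR 4.0.16 (R 4.3.3, robust quasi-likelihood, group as the only term, all 15 libraries, which share the estimate of the spread), with a threshold of 0.05 on p adjusted after Benjamini and Hochberg. The scripts were tested on simulated data. Ratios were tested with SciPy 1.17.1. The study itself used DESeq2, here an alternative (1.42.0), as was limma 3.58.1. Named genes were the 4 members, the 3 genes most like each (prior count 2), and the lowest and highest called gene of each list at 1 µM; HDAC3 complex subunits could be named beyond this, and genes named after their values were seen are marked so. One gene each of the HDAC3 complex and erythroid lists is not reported here and was left out of their counts and sums. Members and lists were chosen with earlier results of these data known. Positions come from GENCODE release 44, promoter sequences from RefSeq. The labels call the replicates biological and the study treats them as independent experiments. Whether equal numbers across doses mark a shared culture or day is not given in the sources used here.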

Additional observations from a re-analysis of the deposited data

How the results depend on the processing

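Of 32 results (4 genes in 8 comparisons), 14 were called, and 9 of these kept their call in all 26 alternatives. Of the 18 not called, 12 stayed so in all 26, and 12 changed sign somewhere, which is counted as a change here only where a value was called. The alternatives were 3 scalings, 2 filters, a replicate block, a fit of only the groups compared, DESeq2, limma on log2(FPKM + 1) and log2(FPKM + 0.1), the omission of each library, and, chosen after seeing the data, of the third replicates at 0.25 and 0.5 µM together. With 3 libraries a group their number limits the precision, and HDAC8 had the lowest counts of the members. The causes of the changes below were not tested.

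For HDAC1 against untreated, the 0.15 µM value was called in the fit of those groups alone (-0.33) and without the third replicates at 0.25 and 0.5 µM (-0.35), and over single omitted libraries it ran from -0.50 to -0.22. It was called without replicate 3 at 0.15 µM or without replicate 3 at 0.5 µM. The 0.5 µM value ran from 0.27 to 0.58 over single omitted libraries. The 1 µM value, 0.36, was called with size factors of DESeq2 (0.42), library totals (0.71), TMM from genes of at least 10 CPM (0.74), at least 10 counts in every library (0.63), the groups alone (0.42), DESeq2 (0.42), limma (0.61 and 0.70) and without the third replicates (0.40). Over single omitted libraries it ran from 0.32 to 0.40, and was called without replicate 3 at 0.15, 0.25 or 0.5 µM. Its rise from 0.25 to 0.5 µM was not called with library totals (0.54), the groups alone (0.66) or limma (0.44 and 0.50).

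The calls at 0.15 µM were lost with library totals, TMM from genes of at least 10 CPM and both limma fits for HDAC2 (-0.13, -0.23, -0.10 and -0.13) and HDAC3 (-0.11, -0.21, -0.093 and -0.11). HDAC3 at 0.25 µM lost its call with library totals (-0.19) and limma (-0.16 and -0.19). With library totals, TMM from genes of at least 10 CPM, at least 10 counts in every library and both limma fits, HDAC3 was called higher at 0.5 µM (0.36, 0.39, 0.27, 0.30 and 0.34) and at 1 µM (0.33, 0.36, 0.25, 0.29 and 0.33). HDAC8 was called higher at 0.25 µM with library totals (0.54) and at 0.25 and 0.5 µM with TMM from genes of at least 10 CPM (0.43 and 0.46).

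Genes called fell with at least 10 counts in every library to 7517, 8851, 9784 and 9690 at the 4 doses and 11139 in the test over groups, since fewer genes were tested. From 0.15 to 0.25 µM 2911 genes were called, 1866 in the fit of these groups alone, and 1704 to 4022 over single omitted libraries. The lowest counts came without replicate 1, 2 or 3 at 0.15 µM (1802, 1870 and 1704) or replicate 2 at 0.25 µM (1940). From 0.5 to 1 µM limma called 1 and 1 with its pseudocounts.

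The log2 ratios of treated against untreated lost their call without the third replicates: HDAC1/HDAC2 (1.16), HDAC1/HDAC3 (0.27) and HDAC2/HDAC3 (-0.89). Over single omitted libraries these ran from 1.17 to 1.44, 0.32 to 0.41 and -1.03 to -0.85, and none of the 3 was called without any 1 of the untreated libraries. HDAC2/HDAC3 was called in 2 of the 15 omissions. In percentage points, the treated against untreated shares lost their call without the third replicates (HDAC1 8.97, HDAC2 -8.09) and ran over single omitted libraries from 9.56 to 11.8 for HDAC1 and from -9.78 to -8.18 for HDAC2. The HDAC1 share between higher and lower doses ran from 7.14 to 10.9, and the HDAC3 share there was called with the deposited FPKM (4.26).

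Of 30 same-numbered pairs, 3 correlated over 0.1 in their deviations from the group means (-0.0663 to 0.579). These were all 3 pairs between 0.25 and 0.5 µM (0.266, 0.268 and 0.579). In that step replicate 2 at 0.25 µM and replicate 1 at 0.5 µM, of unequal number, correlated at 0.236. Replicate 3 at 0.15 µM and replicate 1 at 0.25 µM correlated at 0.148. The third replicates at 0.25 and 0.5 µM stood apart, and deviations from a group mean cancel within the group. The correlations therefore do not show whether the numbers pair the libraries. With the replicate as a block, the step from 0.25 to 0.5 µM gave 0.66 for HDAC1, -0.61 for HDAC2 and 0.69 for HDAC3, all called, and 7161 against 7211 genes called. No call of a member changed under the block, with HDAC2 at -1.70 and HDAC1 at 0.36 at 1 µM, and 2896 genes were called from 0.15 to 0.25 µM.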
